A study of Mus musculus with 2 samples.

Results

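The matrix metalloproteases (Mmp) and their Adamts relatives are the enzymes that cut the extracellular matrix, and the tissue inhibitors of metalloproteases (Timp) hold them in check. They are taken here as the non-control probes whose name in the array files is Mmp, Adamts or Adamtsl followed by a number, or Timp1, Timp2 or Timp3. That rule found 36 of the 41174 distinct probes. They stand for 29 of the 38354 gene names in the files: 24 probes of 19 Mmp genes, 9 probes of 7 Adamts genes and 3 probes of 3 Timp genes. No probe carried an Adamtsl name.

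Interscapular brown fat RNA of double-knockout mice (DKO) was compared with that of wild-type mice (WT). Rora, which encodes a nuclear receptor, is among the genes that DKO mice lack. Both groups were male mice on the C57BL/6 background, 2 to 3 months old, sampled near circadian time 20, with 4 mice per genotype. Each of 2 two-colour arrays carried both genotypes, and the dyes were swapped between them. DKO RNA carried Cy5 on the first, called the Cy5 array here, and Cy3 on the other, the Cy3 array. The sources used here do not say whether mice were pooled or whether the arrays shared extracts, so each genotype counted as 1 sample and no test was possible. They do not say either which part of each gene was deleted.

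Mmp and Adamts enzymes carry zinc in the active site, are made as inactive precursors and become active when a prodomain is removed. Mmp enzymes cut collagens, gelatin, laminin and many cell surface proteins, while several Adamts enzymes cut the proteoglycans aggrecan and versican. Timp proteins plug the active site. In fat, matrix cutting is known to accompany the growth of new adipocytes and of the capillaries that feed them. Nuclear receptors of the ROR family bind DNA at the sequence AGGTCA preceded by an A- and T-rich stretch.

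The promoters are shown because they are where a direct tie to Rora could be looked for in sequence. Of the 29 genes, 20 had an entry in the RefSeq promoter table (build GRCm38.p6), with 23 start sites. The windows hold the 250 bases before each start. The letters AGGTCA, searched on both strands, stood in 3 of 23 windows (13%), against 4607 of 32851 windows of the same length (14%). The longer ROR element, in which an A- and T-rich stretch comes before AGGTCA, was found in 0 of 23 windows, against 109 of 32851 (0.332%). These are letter matches and not binding sites. The 3 windows that hold AGGTCA, or its reverse complement TGACCT, and the window of Adamts1, the gene with the highest ratio below, are these, with the match in capitals.
Mmp1a, chr9:7463891-7464140, plus strand: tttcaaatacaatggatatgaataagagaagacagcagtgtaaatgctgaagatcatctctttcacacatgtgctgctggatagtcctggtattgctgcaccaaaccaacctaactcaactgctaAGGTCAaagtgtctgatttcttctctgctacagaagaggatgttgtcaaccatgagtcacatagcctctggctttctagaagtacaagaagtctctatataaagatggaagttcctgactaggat
Mmp10, chr9:7502092-7502341, plus strand: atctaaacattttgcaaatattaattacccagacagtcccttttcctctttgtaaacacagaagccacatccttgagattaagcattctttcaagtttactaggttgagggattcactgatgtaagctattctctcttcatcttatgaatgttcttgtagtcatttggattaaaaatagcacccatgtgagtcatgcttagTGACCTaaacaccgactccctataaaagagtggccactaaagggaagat
Mmp12, chr9:7347124-7347373, plus strand: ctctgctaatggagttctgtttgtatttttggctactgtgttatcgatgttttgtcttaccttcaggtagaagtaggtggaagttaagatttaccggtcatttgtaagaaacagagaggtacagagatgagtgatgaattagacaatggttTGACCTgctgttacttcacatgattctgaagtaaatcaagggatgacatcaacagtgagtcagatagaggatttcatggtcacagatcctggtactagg
Adamts1, chr16:85803114-85803363, minus strand: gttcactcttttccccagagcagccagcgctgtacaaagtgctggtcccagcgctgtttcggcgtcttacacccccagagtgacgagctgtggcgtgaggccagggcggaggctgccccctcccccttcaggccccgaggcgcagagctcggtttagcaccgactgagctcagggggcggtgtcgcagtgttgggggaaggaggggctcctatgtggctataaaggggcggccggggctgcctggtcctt
The match lay 125 to 120 bases before the start in Mmp1a, 49 to 44 in Mmp10 and 99 to 94 before one of the starts of Mmp12. The other Mmp12 start had none. Mmp2, Mmp9 and Adamts5 are named only.

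The metalloprotease genes of brown fat gave ratios close to 0 between DKO and WT, and none of them passed a size rule. Each value is a log2 ratio, DKO over WT, after background correction and dye normalisation, given first on the Cy5 array, then on the Cy3 array, then as the mean ± SD over the 2 arrays. Dye effects and measurement error enter that SD, and so would differences between extracts if the arrays did not share them. It was not taken as the spread between animals. A probe counted as measured where DKO, WT or both were well above background on each array. This was so for 30 of the 36 probes and 26 of the 29 genes, against 32424 of all probes. None of the 30 reached a 2-fold difference (a mean of at least 2-fold, and at least 1.5-fold the same way on each array). Among all measured probes 0.0987% were higher and 0.0216% lower in DKO by that rule. At 1.5-fold, with at least 1.2-fold on each array, 0 of 30 passed again, beside a background of 0.336% higher and 0.234% lower. With so few calls on the whole array, 0 of 30 does not set these genes apart from the rest. In whole tissue, fewer cells of a type and less RNA per cell cannot be told apart.

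**Figure D1:**
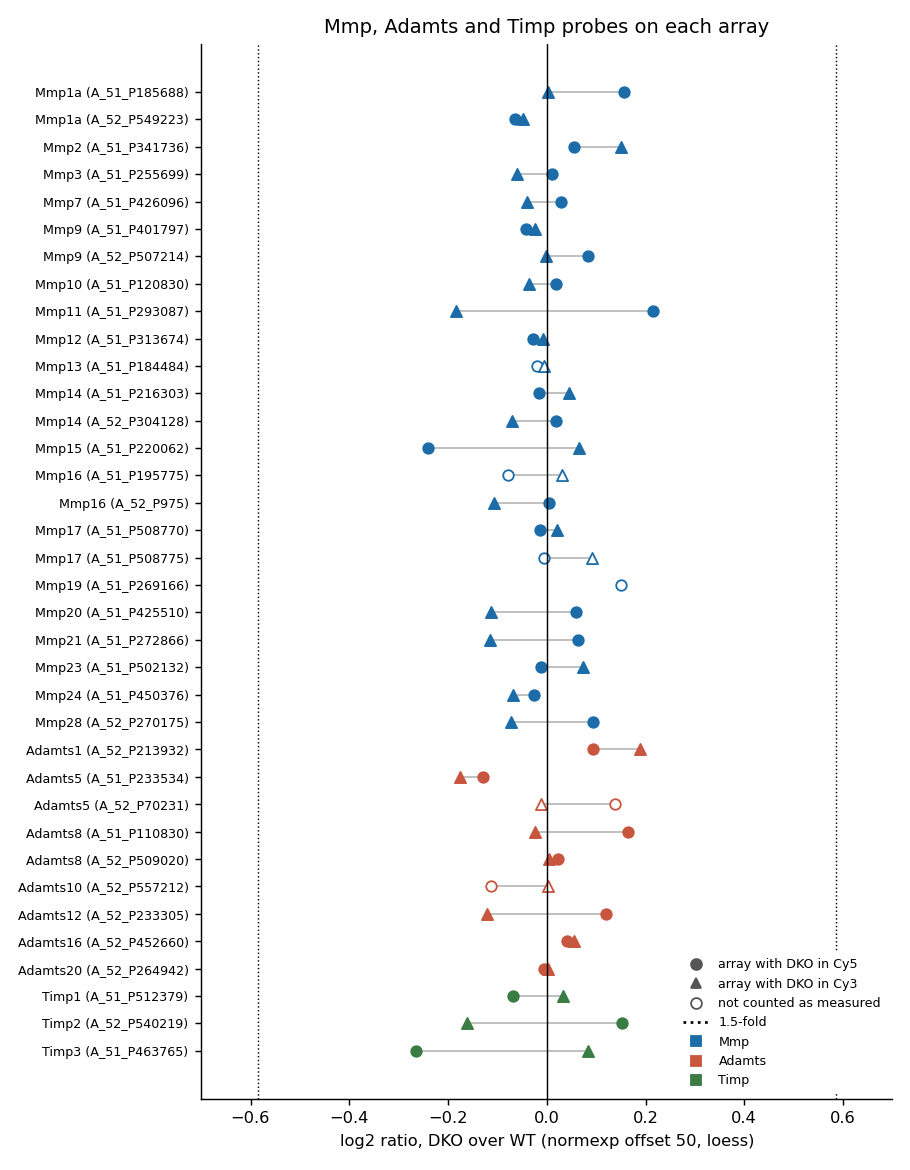
Log2 ratio of DKO over WT (x axis) of each Mmp, Adamts and Timp probe (rows), on the Cy5 array (DKO in Cy5, circles) and the Cy3 array (DKO in Cy3, triangles), joined by a line. Open symbols mark probes not counted as measured, and dotted lines mark 1.5-fold. All points lie inside the dotted lines, and most lines cross 0.

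The means of the 30 measured probes spanned −0.15 to 0.14, with a median of −0.01 beside 0.00 for all measured probes. By family, the medians were −0.01 for 20 Mmp probes, 0.01 for 7 Adamts probes and −0.02 for 3 Timp probes. The sign held on both arrays for few of them. Above 0 on both arrays lay 5 of 30 probes (16.7%, against 19.5% of all measured probes), and below 0 on both lay another 5 (16.7%, against 17.8%). The remaining 20 probes (66.7%, against 62.7%) changed sign with the dye. The SD of the means over the 30 probes was 0.06, and it was 0.08 when the sign of the Cy3 array was left unturned, which measures the dye in place of the genotype. Over all measured probes these SDs were larger, at 0.119 and 0.122. Among measured probes within the brightness range of the 30, the SD of the means was 0.110. Between the arrays the ratios had a correlation of −0.29 over these 30 probes, which share both hybridisations, and −0.02 over all measured probes.

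**Figure D2:**
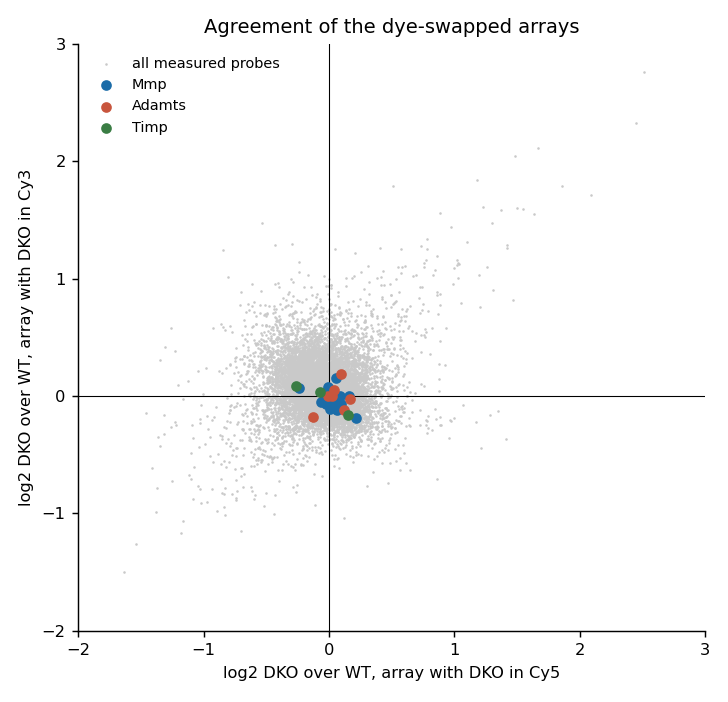
Log2 ratio of DKO over WT on the Cy5 array (x axis) and the Cy3 array (y axis), for all 32424 measured probes (grey) and the 30 measured Mmp, Adamts and Timp probes (coloured). The coloured points stay in the centre of the cloud, with 20 of 30 in the quadrants where the arrays have opposite sign.

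The means farthest from 0 belonged to a dim probe each of the proteoglycan-cutting enzymes Adamts1 and Adamts5. Their genes are neighbours on chromosome 16, and these means went opposite ways. Adamts1, which cuts versican and aggrecan, had normalised log2 signals of 6.51 and 6.80 in DKO, against 6.42 and 6.61 in WT. DKO was above WT on each array, though the DKO signal of the Cy5 array lay below the WT signal of the Cy3 array. Its ratio was 0.09 and 0.19, with a mean of 0.14 ± 0.07. The added offset narrows ratios of dim probes, and in the scanner software's own ratios, which carry no such offset, Adamts1 read 0.32 and 0.41, with a mean of 0.37 ± 0.07. In the authors' deposited table the error model of the software gave p-values of 0.369 and 0.14 for those ratios. Another probe, which the files list under a different name and RefSeq accessions assign to Adamts1, read 0.03 and 0.00, with a mean of 0.02 ± 0.01. That probe was much brighter, with an average log2 intensity of 8.89 against 6.57 for the first. The Adamts1 difference therefore rests on the dimmer probe, and the brighter one did not show it.

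Adamts5, the main aggrecan-cutting enzyme of mouse cartilage, had log2 signals of 6.32 and 6.28 in DKO, against 6.45 and 6.46 in WT. Both DKO signals lay below both WT signals. The ratio was −0.13 and −0.18, with a mean of −0.15 ± 0.03, and the scanner software gave −0.63 and −0.36, with a mean of −0.50 ± 0.19. The p-values beside them in the authors' deposited table were 0.0737 and 0.341. Adamts5 is also read by another probe, which was not well above background and had a mean of 0.06 ± 0.10. A probe at background gives no direction, so the value of Adamts5 rests on the first probe alone. The 30 measured probes spanned average log2 intensities of 6.29 to 9.61. Of the 27382 measured probes of the array within that range, 8.42% had a mean at least as far from 0 as the 0.15 of Adamts5. That share was not matched to the brightness of the Adamts5 probe, which lay near the dim end at 6.38.

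Among the other Adamts genes, Adamts8, which also cuts aggrecan, had log2 signals of 6.86 and 6.998 in DKO, against 6.69 and 7.02 in WT. The arrays disagreed in sign, at 0.16 and −0.02 (mean 0.07 ± 0.13), and its other probe read 0.02 and 0.00 (mean 0.01 ± 0.01). Adamts12, known for cutting the cartilage protein Comp, had 8.25 and 8.00 in DKO, against 8.13 and 8.12 in WT. Its ratios of 0.12 and −0.12 were mirror images, so that the mean was 0.00 ± 0.17. Adamts16 had 7.74 and 7.95 in DKO, against 7.69 and 7.89 in WT, and was slightly above 0 on both arrays at 0.04 and 0.06 (mean 0.05 ± 0.01). Adamts20, which in mice is needed for the spread of pigment cells into the skin, was at −0.00 ± 0.01. Adamts10, which binds fibrillin microfibrils, was not well above background.

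**Figure D3:**
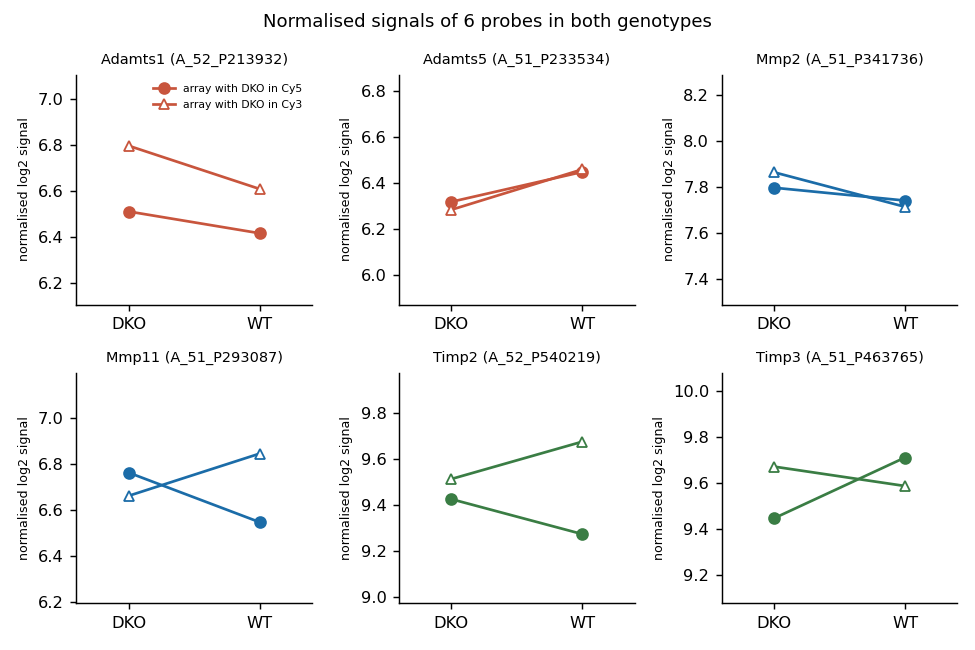
Normalised log2 signal (y axis) of 6 probes in DKO and WT (x axis), with 1 line per array: filled circles for DKO in Cy5, open triangles for DKO in Cy3. Both lines slope the same way for Adamts1, Adamts5 and Mmp2, while those of Mmp11, Timp2 and Timp3 slope opposite ways. Panels have different y ranges, and levels of different probes are not comparable.

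The gelatinases and collagenases came next. Mmp2, the gelatinase made by fibroblasts and other stromal cells, had log2 signals of 7.80 and 7.86 in DKO, against 7.74 and 7.71 in WT. Both DKO signals lay above both WT signals, by ratios of 0.06 and 0.15 and a mean of 0.10 ± 0.07. That mean lies far inside 1.5-fold. Mmp9, the gelatinase of neutrophils and macrophages, was read by probes of opposite sign. The first Mmp9 probe had 6.60 and 6.62 in DKO, against 6.64 and 6.65 in WT (ratios −0.04 and −0.02, mean −0.03 ± 0.01). The other had 7.39 and 7.18 in DKO, against 7.31 and 7.19 in WT (ratios 0.08 and −0.00, mean 0.04 ± 0.06). The probes of Mmp1a, a mouse counterpart of interstitial collagenase, also went opposite ways. The first had 7.53 and 7.53 in DKO, against 7.38 and 7.53 in WT (ratios 0.16 and 0.00, mean 0.08 ± 0.11). The second had 6.82 and 6.90 in DKO, against 6.89 and 6.95 in WT (ratios −0.06 and −0.05, mean −0.06 ± 0.01). Neither pair of probes gives the gene a direction. Mmp13, another collagenase, was not well above background.

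The stromelysins and related enzymes had means between −0.03 and 0.02. Mmp11 (stromelysin-3) showed the widest swing between the arrays, with log2 signals of 6.76 and 6.66 in DKO, against 6.55 and 6.85 in WT. Its ratio was 0.22 on the Cy5 array and −0.18 on the Cy3 array, and the higher signal was the Cy5 one each time. In the software's ratios the swing was 0.55 against −0.55, with p-values of 0.0488 and 0.0448 in the authors' deposited table, so each array alone would have given Mmp11 an opposite direction. Mmp3 (stromelysin-1) was at −0.03 ± 0.05, Mmp10 (stromelysin-2) at −0.01 ± 0.04, Mmp7 (matrilysin) at −0.01 ± 0.05 and Mmp12, the elastase of macrophages, at −0.02 ± 0.01.

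The membrane-anchored enzymes cut at the cell surface, and Mmp14 among them activates Mmp2. The first Mmp14 probe had log2 signals of 6.97 and 7.27 in DKO, against 6.99 and 7.22 in WT (ratios −0.02 and 0.04, mean 0.01 ± 0.04). The other Mmp14 probe had 7.04 and 6.93 in DKO, against 7.02 and 6.999 in WT (ratios 0.02 and −0.07, mean −0.03 ± 0.06). Neither kept its sign across the arrays. Mmp15 had 6.16 and 6.40 in DKO, against 6.40 and 6.34 in WT, with ratios of −0.24 and 0.06 and a mean of −0.09 ± 0.22. Mmp16 had 6.60 and 6.37 in DKO, against 6.59 and 6.48 in WT, with ratios of 0.00 and −0.11 and a mean of −0.05 ± 0.08. In both genes 1 array held most of the difference. Mmp17, which is held to the membrane by a glycolipid anchor, had 8.37 and 7.90 in DKO, against 8.38 and 7.88 in WT, and a mean of 0.00 ± 0.02. Mmp24 stayed below 0 on both arrays, at −0.03 and −0.07 (mean −0.05 ± 0.03), and Mmp23 was at 0.03 ± 0.06. The other probes of Mmp16 and Mmp17 were not well above background.

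Mmp21, required for left-right patterning of the embryo, had log2 signals of 8.94 and 8.74 in DKO, against 8.88 and 8.86 in WT. The ratios were 0.06 and −0.12, with a mean of −0.03 ± 0.13. Mmp28 (epilysin) was at 0.01 ± 0.12 and Mmp20, the protease of tooth enamel, at −0.03 ± 0.12. That Mmp20 counted as measured in fat shows light on its spot and not that the probe reads its own transcript, which was not tested for any probe here. Mmp19 was marked as an outlier spot on the Cy3 array, so only the 0.15 of the Cy5 array is left and it entered no count.

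The Timp probes within the rule had means between −0.09 and −0.01. Timp2, which also takes part in the activation of Mmp2 by Mmp14, had log2 signals of 9.43 and 9.51 in DKO, against 9.27 and 9.68 in WT. Its ratios were 0.15 and −0.16, with a mean of −0.01 ± 0.22. Timp3, which binds to the matrix and inhibits Adamts enzymes as well, had 9.45 and 9.67 in DKO, against 9.71 and 9.59 in WT. Its ratios differed in sign, at −0.26 and 0.08, with a mean of −0.09 ± 0.25. Timp1, which binds the precursor of Mmp9, had 6.25 and 6.32 in DKO, against 6.32 and 6.29 in WT, and a mean of −0.02 ± 0.07. Brighter Timp1 probes, which the files list under other names, had means of 0.09 ± 0.12 and 0.04 ± 0.07. All 3 Timp probes within the rule changed sign between the arrays.

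**Figure D4:**
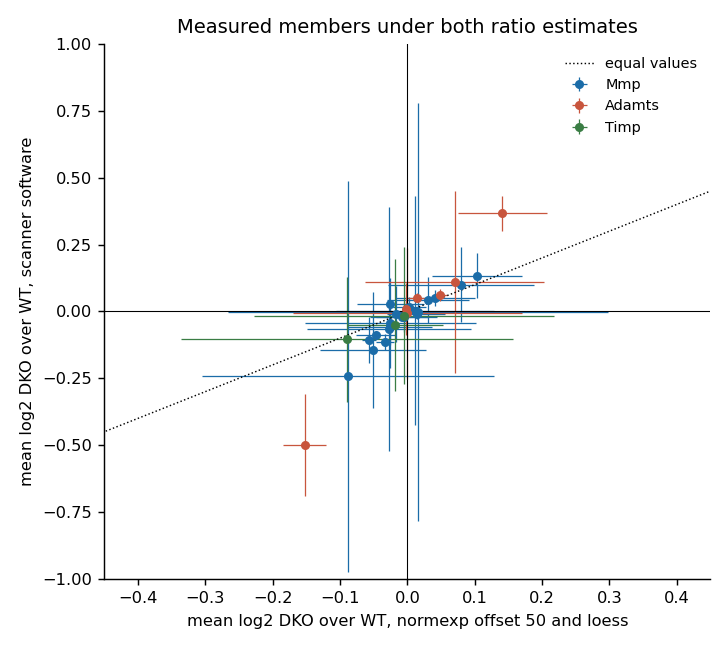
Mean log2 ratio of DKO over WT of the 30 measured probes with the offset of 50 and loess (x axis) and from the scanner software (y axis), with bars of 1 SD over the 2 arrays and a dotted line of equal values. Adamts1 (0.37) and Adamts5 (−0.50) stand farthest from 0 in the software's ratios, and the longest vertical bars belong to Mmp11 and Mmp15.

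Many of these probes were dim, which limits what the ratios can show. Net signals over background ran from 18.6 to 725 with a median of 59.4, against a median of 76.4 for all measured probes, and 13 of 30 (43.3%, against 37.1%) were below the offset of 50. Without the offset, in the software's ratios, the 30 means spanned −0.50 to 0.37 and their median was −0.01. The software's p-value in the authors' deposited table was below 0.01 for 0 of 30 on the Cy5 array and 0 of 30 on the Cy3 array. Over all measured probes it was below 0.01 for 1467 and 1651, and for 160 higher and 137 lower in DKO on both arrays.

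Several of the genes sit side by side. A run of 10 adjacent protein-coding genes on chromosome 9 holds Mmp13, Mmp12, Mmp1b, Mmp3, Mmp1a, Mmp10, Mmp8, Mmp27, Mmp20 and Mmp7, and 7 of them are among the 29 genes. The 7 measured probes in that run had a median of −0.02 (range −0.06 to 0.08), beside a median of 0.00 (range −0.15 to 0.14) for the 23 measured probes outside it. The run holds all of the promoters with AGGTCA shown above. Among those genes, the Mmp1a probes went opposite ways, Mmp10 was at 0.02 and −0.04 and Mmp12 at −0.03 and −0.01.

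Genes that act on, beside or under these enzymes were read from 3 further lists. Of the activators and brakes, 21 of 28 genes were measured by 31 probes, none was called, and the median was −0.03, with 1 probe above 0 on both arrays (3.23%, against 19.5% of all measured probes) and 12 below (38.7%, against 17.8%). Sparc, a matrix protein that can raise Mmp levels in cell culture, had log2 signals of 10.36 and 10.20 in DKO, against 10.58 and 10.77 in WT (mean ratio −0.40 ± 0.25). A further Sparc probe had ratios of −0.42 and 0.11 (mean −0.16 ± 0.37), so the arrays did not settle its direction. Bsg, a cell surface inducer of Mmp expression, read 0.22 and 0.43 (mean 0.32 ± 0.15), and it was named after its value was seen. Of the other metzincins (Adam and astacin proteases), 14 of 19 genes were measured by 19 probes and none was called, with a median of −0.02. The sheddase Adam9 read 0.12 and 0.13 (mean 0.12 ± 0.01) and Mep1a, a subunit of meprin, read −0.06 and −0.00 (mean −0.03 ± 0.04).

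Of the 3 lists, that of the matrix substrates held the only calls. Of 36 listed genes 31 were measured by 38 probes, with a median of −0.07, beside 0.00 for all measured probes, and of −0.09 on the Cy5 array and −0.01 on the Cy3 array. Below 0 on both arrays lay 17 of the 38 probes (44.7%, against 17.8% of all measured probes), and 3 lay above (7.89%, against 19.5%). By the 1.5-fold rule Ltbp2 and Ncan fell in DKO, which is 2 of 38 probes (5.26%, against 0.234% of all measured probes), and no probe passed at 2-fold. These shares describe the list and were not tested. Ltbp2, a microfibril protein, had log2 signals of 8.60 and 9.20 in DKO, against 9.94 and 9.63 in WT. Both DKO signals were below both WT signals, but the size differed widely between the arrays, at −1.35 and −0.43 (mean −0.89 ± 0.65), and the Cy3 array alone fell short of 1.5-fold. Ncan, a proteoglycan known mainly from brain, had 7.39 and 7.41 in DKO, against 8.09 and 8.02 in WT, a steadier ratio of −0.70 and −0.61 (mean −0.66 ± 0.06). The brightest substrates were at −0.04 ± 0.05 (Dcn, a collagen-binding proteoglycan) and −0.04 ± 0.10 (Ltbp4).

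Markers of brown fat and of other cell types were read beside the metalloproteases. Their ratios between genotypes cannot check the tissue label, which both genotypes share. Ucp1, a brown fat marker, had log2 signals of 15.10 and 15.20 in DKO, against 14.37 and 14.46 in WT. All 8 brown adipocyte markers were measured, by 9 probes with a median of 0.18. On both arrays 6 of the 9 lay above 0 (66.7%, against 19.5% of all measured probes) and 1 below (11.1%, against 17.8%). By the 2-fold rule 2 of 9 rose (22.2%, against 0.0987%), and by the 1.5-fold rule 3 of 9 (33.3%, against 0.336%). Dio2, which activates thyroid hormone (1.89 ± 0.32), and the fatty acid elongase gene Elovl3 (1.02 ± 0.02) rose by the 2-fold rule, and Ucp1, the heat-making uncoupling protein (0.73 ± 0.00), by the 1.5-fold rule. Ppargc1a (0.54 ± 0.04 and 0.14 ± 0.07 on its probes) and Cox7a1 (0.18 ± 0.19) lay above 0 on both arrays without a call. Cox8b (0.01 ± 0.30) and Prdm16 (−0.08 ± 0.29) changed sign between the arrays, and the Cidea probe was saturated. The general adipocyte markers had a median of −0.12, and their medians went opposite ways on the arrays, at −0.30 on the Cy5 array and 0.22 on the Cy3 array. These medians include saturated Fabp4 probes, which read −0.54 and 0.34, and −0.68 and 0.34. A Fabp4 probe that was not saturated read −0.24 and −0.21. Of the 8 adipocyte probes, 7 changed sign between the arrays.

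Fibroblast (−0.05), endothelial (−0.03), macrophage (0.05), mast cell (−0.00), smooth muscle and pericyte (0.00) and cartilage (−0.01) markers had medians near 0 and no called gene. Above and below 0 on both arrays lay 1 and 3 of 6 fibroblast probes and 3 and 2 of 7 endothelial probes. For macrophages it was 2 and 0 of 7, and for mast cells 0 and 2 of 5. Smooth muscle and pericyte probes had 2 and 2 of 6, and cartilage probes 0 and 3 of 5. Of all measured probes 19.5% lay above and 17.8% below. Among those below 0 were Col3a1 (−0.34 ± 0.17), a fibrillar collagen of fibroblasts, and Kit (−0.40 ± 0.03), the mast cell growth factor receptor. Pdgfrb (−0.25 ± 0.03), a receptor of pericytes, was below 0 too. Among those above 0 were Pdgfra (0.07 ± 0.05) of fibroblasts, Pecam1 (0.15 ± 0.16) of endothelium and a Lyz2 probe (0.20 ± 0.10) of macrophages. Other markers of the same lists went other ways. The endothelial Kdr (−0.20 ± 0.02) and Emcn (−0.09 ± 0.12), both brighter than Pecam1, lay below 0 on both arrays. Acta2 of smooth muscle lay above 0 on both with probes at 0.41 ± 0.47 and 0.07 ± 0.08, and a further probe changed sign. Cpa3 of mast cells (−0.00 ± 0.06) changed sign. Of 6 neutrophil genes Elane, Ngp and S100a8 were not well above background, and the measured ones had a median of −0.01. The 6 skeletal muscle probes were all above 0 on both arrays (100%, against 19.5% of all measured probes), with medians of 0.32 on the Cy5 array and 1.16 on the Cy3 array. By the 2-fold rule 1 of 6 rose (16.7%, against 0.0987%), and by the 1.5-fold rule 3 of 6 (50%, against 0.336%). Mb, the muscle oxygen store (1.004 ± 0.39), rose by the 2-fold rule, and the contractile protein genes Acta1 (0.84 ± 0.36) and Tnnt3 (0.69 ± 0.36) by the 1.5-fold rule. The part of these cell types in the ratios of the metalloproteases was not tested. Rora was lower in DKO on both arrays with each of its probes (means −0.38 ± 0.04 and −0.47 ± 0.10). Both probes were dim, and in the scanner software's ratios, which carry no offset, their means were −0.96 and −1.52. The sources used here do not say whether those probes lie in the deleted part.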

How the data were processed

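Images were read by the authors in Agilent Feature Extraction 7.5 with its defaults, per the submitters' processing notes and the labels. The deposited spot files give each spot's intensity (mean and median) and that of its local background on a linear scale, per the file headers. Per the file headers, each spot also has a log10 ratio, red over green, made by the software after spatial detrending and dye normalisation, and a p-value of that ratio from its error model, which covers measurement error on 1 array. Log2 ratios in the deposited series value table matched red over green in the spot files within 0.001 for 40962 of 41001 and 41101 of 41141 values. Amplified RNA was hybridised for 17 hours with 750 ng of cRNA in each dye, per the labels.

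Background correction of mean signals used normexp and the median local background (offset 50). Ratios were loess-normalised within each array with controls at weight 0, turned to DKO over WT and averaged (limma 3.58.1, R 4.3.3). Signals per genotype were also normalised between arrays (Aquantile). Outlier spots (171 and 29) were dropped and replicate spots were averaged, which left 40979 probes with values on both arrays. Well above background means 2.6 background SDs, per the file headers. Median mean signals were 129 in DKO and 112 in WT on the array that had DKO in Cy5. On the other they were 107 in DKO and 108 in WT. The number of arrays limits the precision.

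Of the 36 probes, 31 matched a RefSeq gene table (GRCm38.p6) by accession and 5 by symbol, and no name changed. All ratios were computed over the whole array. Values per array are given for the 5 highest and 5 lowest measured probes, the 3 brightest Mmp and Adamts probes, all Timp probes, Mmp2, Mmp9, Mmp14, Adamts1, Adamts5 and genes whose probes differ in sign; Mmp11 was added after its values were seen. Of the other protease and matrix lists, called genes or else the 2 brightest are named. From the marker lists, called genes are named, and the remaining markers were picked with their values in view. The genes and lists were chosen with earlier results of these data known. Alternatives were an offset of 16, the ratios of the software, the series value table, median signals, median centring, loess on detected spots, 2 dim filters, 1 probe per gene and single arrays. Counts and plots were made in Python 3.11.15 (numpy 2.4.6, pandas 2.3.3, matplotlib 3.10.9).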

Additional observations from a re-analysis of the deposited data

How the results depend on the processing

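In every setting run, each array alone included, 0 of the metalloprotease and inhibitor probes passed either size rule in either direction. The median moved to 0.0333 with median centring, beside 0.0412 for all measured probes there, and spanned −0.0237 to 0.0186 with 1 array alone. With 1 probe per gene, 3 of 26 lay below 0 on both arrays in place of 5 of 30, beside 5136 of 28677 over the whole array. On the Cy3 array alone, 12 of 31 lay above 0 and 19 below, beside 16414 and 16919 of 33333 over the whole array. On the Cy5 array alone, 20 of 35 lay above 0 and 15 below, beside 18619 and 16491 of 35110. Such counts ask only 1 array for its sign. Of 19 named probes, the sign turned for 4 with median centring, 3 with median signals, 2 each with the software's ratios, the value table and loess on detected spots, 1 with offset 16 and 6 with either array alone. The first probe of Adamts1 ranged from 0.09 to 0.37 and that of Adamts5 from −0.50 to −0.13 over these settings, with no change of sign. No paired analysis was possible because each genotype counts as 1 sample. Dim signal limits small ratios, since the offset of 50 exceeded the net signal of 13 of 30 probes.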

Other observations

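A further 14 probes, outside the rule, belong to 12 genes of the same families. The array files list 13 of them under other names, and RefSeq accessions or older symbols tie these to the families, while Timp4 carries its own name. Of these, 10 were measured and none was called, with means from −0.02 to 0.09 and a median of 0.02. Adamts4, another aggrecan-cutting enzyme, read 0.22 and −0.07 (mean 0.08 ± 0.21), and Timp4, an inhibitor known from heart and fat, read −0.08 and 0.24 (mean 0.08 ± 0.23). Both changed sign between the arrays. Adamts2, which trims procollagen, was at 0.01 ± 0.01 and its relative Adamts3 at 0.02 ± 0.11. Of the Adamts-like proteins, which lack the protease domain, Adamtsl4 was at 0.01 ± 0.03 and Adamtsl5 at −0.02 ± 0.14. Further Timp1 probes had average log2 intensities of 6.93 and 7.95, against 6.29 for the Timp1 probe within the rule. The first read 0.17 and 0.00, above 0 on both arrays (mean 0.09 ± 0.12). The other changed sign (mean 0.04 ± 0.07). Mmp8, the collagenase of neutrophils, Adamts13 and Adamts19 were not well above background.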
